A study of Homo sapiens with 18 samples.

Results

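IMPDH1 and the enzymes that make purine nucleotides were followed in RNAseq of human cells transfected with a microRNA mimic. The group holds 10 genes, IMPDH1, IMPDH2, GMPS, PPAT, GART, PFAS, PAICS, ADSL, ATIC and HPRT1, of the 16715 genes that are listed in either of the deposited tables, and all 10 are listed in both tables. The group was chosen by the fall of IMPDH1 in RPE-1 cells, which is among the deepest in that line, so the IMPDH1 values of that line are given as a description and without a test. The other 9 genes were taken for their place in the pathway.

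The 18 libraries of polyadenylated RNA came from 2 human cell lines, with 3 biological replicates in each of 3 groups per line. MCF10A is a near-normal breast epithelial line and hTERT RPE-1 is a retinal pigment epithelial line immortalised with telomerase. Each transfection used 30 nM RNA and lasted 72 h. The RNA was a mimic of hsa-miR-28-5p (called miR-28 here), a mimic of hsa-miR-708-5p (called miR-708) or siNT, a non-targeting siRNA that was the control in either line. The control is therefore an siRNA and not a microRNA mimic, and the RNAseq was done at this dose and time alone. The replicate numbers run from 7 to 9 in MCF10A and from 1 to 3 in RPE-1. A value is an estimated read count of a gene divided by the size factor of its library.

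Purine nucleotides are built on phosphoribosyl pyrophosphate in a chain of reactions that ends at inosine monophosphate (IMP). From IMP the path divides, with IMP dehydrogenase and GMP synthetase leading to GMP and adenylosuccinate synthetase and adenylosuccinate lyase leading to AMP. IMP dehydrogenase is the rate-limiting step toward guanine nucleotides, and GTP is a substrate of RNA polymerases, including RNA polymerase I, which transcribes rRNA in the nucleolus. Cells can also salvage free bases, as HPRT1 does with hypoxanthine and guanine.

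The depth estimated from the steps of low values was 19.4–31.7 M reads on genes per library in MCF10A and 23.8–40.3 M in RPE-1, and 3 reads corresponded to a value of 2.36 to 4.41 over all libraries. All values of the 10 genes lay above this floor, which covers counting error only. The 18S, 28S, 45S and 5.8S rRNA genes took 15.1% of the values in replicate 1 of miR-28 in RPE-1, against 4.23% to 7.20% in the other libraries of that line, and results in that group are given with and without this library where it matters. In MCF10A all 8 breast epithelial markers were listed, and of 6 markers of other cell types only PECAM1 was, at 67.0 to 189. In RPE-1, 7 of 9 retinal pigment epithelial markers were listed, whereas the defining markers RPE65 and TYR were not, and of the markers of other cell types only PTPRC was listed, at a value of at most 11.4. In MCF10A, 5 of the same 9 retinal markers were listed, RPE65 among them. RLBP1 counts as listed in RPE-1 at a mean of 2.42 with siNT, near the floor. No listed gene had a value of 0 in any library, so a gene that is not listed may still have reads in some libraries. Of the 8 breast epithelial markers, 2 were listed in RPE-1, TP63 and LAMB3, at a summed value of 236 to 320 with siNT. Of 6 mesenchymal markers, all were listed in RPE-1 and 5 in MCF10A. For the retinal and mesenchymal markers, being listed therefore does not by itself tell the lines apart.

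The mature sequences of the mimicked microRNAs are shown because they share the seed, bases 2 to 8 from the 5′ end, which is in capitals.
hsa-miR-28-5p: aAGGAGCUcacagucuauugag
hsa-miR-708-5p: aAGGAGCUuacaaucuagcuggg
The first 8 bases are identical, and 6 of the 22 positions that can be compared differ. The letters AGCTCCT on the transcript strand match bases 2 to 8 and GCTCCT matches bases 2 to 7. The MANE Select transcript of each of the 10 genes in GENCODE 44 was searched for them on the sense strand.

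IMPDH1 lies on the minus strand of chromosome 7 (hg38, 128392277–128409982), and its transcript has 17 exons and a 3′ UTR of 730 nt, all of the matches lying in exon 17. The 3 matches in this 3′ UTR are shown, 5′ to 3′ on the transcript strand, in windows of 30 bases with the match in capitals.
IMPDH1 site at 111 nt: acgggttctccAGCTCCTttccaggcagag
IMPDH1 site at 443 nt: tggcacttctgAGCTCCTgacctaggccaa
IMPDH1 site at 510 nt: ccttgggtcctGCTCCTcaggccgctcccc
The distances count from the first base after the stop codon. The windows are at chr7:128392878-128392907, chr7:128392546-128392575 and chr7:128392479-128392508, so that the first 2 matches, to bases 2 to 8, are 332 nt apart and the third, to bases 2 to 7, follows 67 nt later. All 8 annotated coding transcripts of IMPDH1 with a complete 3′ UTR hold a match to bases 2 to 8 there.

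IMPDH1 alone among the 10 genes had a match to bases 2 to 8 in the 3′ UTR, and the count was the same when every annotated transcript was searched. Of the others, PAICS held a match to bases 2 to 7 in its 3′ UTR, 4489 nt after the stop codon, and it is shown for comparison with ADSS2, the adenylosuccinate synthetase on the path to AMP, which is not one of the 10 genes.
PAICS site at 4489 nt: cagatgttggtGCTCCTggtcctcaggcct
ADSS2 site at 220 nt: aatcatttgttGCTCCTgctgctctcatgg
These windows are at chr4:56464016-56464045 on the plus strand and chr1:244409348-244409377 on the minus strand. PFAS held 4 such matches in its coding sequence and GMPS held 2 in its 5′ UTR, and none was found in the transcripts of IMPDH2, PPAT, GART, ADSL, ATIC or HPRT1. Among the genes tested with a MANE Select transcript, 382 of 12826 in MCF10A (2.98%) and 373 of 12623 in RPE-1 (2.95%) had at least 2 matches to bases 2 to 8 in the 3′ UTR, as IMPDH1 does. A match is a description of the letters, and binding was not measured here.

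**Figure D1:**
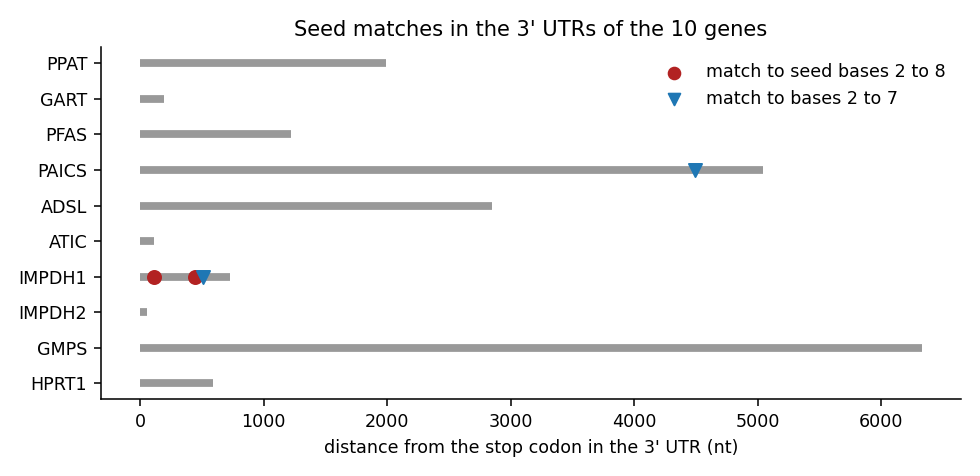
Seed matches of miR-28 and miR-708 in the 3′ UTRs of the 10 genes, drawn to scale as grey bars from the stop codon (x axis, nt). Circles are matches to bases 2 to 8 and triangles matches to bases 2 to 7. IMPDH1 holds 2 circles and 1 triangle within 730 nt, PAICS holds 1 triangle and the other bars hold none.

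In MCF10A, IMPDH1 fell with both mimics to under 20% of its siNT level in the mean. It encodes the IMP dehydrogenase isoform that is less abundant in most dividing cells. The values with siNT were 1406, 1359 and 1223 in replicates 7, 8 and 9. With miR-28 they were 345, 213 and 186. With miR-708 they were 298, 205 and 178. Every library with a mimic lay below every siNT library, and replicate 7 was the highest with each mimic. The mean was 18.7% of siNT with miR-28 and 17.1% with miR-708. The log2 fold change was -2.47 ± 0.23 with miR-28 (SE, adjusted p = 0.00017, limma with Benjamini-Hochberg adjustment over 14726 genes) and -2.58 ± 0.23 with miR-708 (adjusted p = 3.6e-05, limma). By size, IMPDH1 was number 18 from the lowest of all 14726 log2 fold changes with miR-28 and number 21 with miR-708. In bulk RNA, fewer cells that express a gene and less RNA per cell cannot be told apart.

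In RPE-1, on which the choice of IMPDH1 rests, its values with siNT were 1248, 1279 and 1083 in replicates 1, 2 and 3. With miR-28 they were 66.8, 63.9 and 48.9. With miR-708 they were 63.6, 46.6 and 39.1. The mimic libraries therefore sat at 4.97% and 4.14% of the siNT mean, at log2 fold changes of -4.32 and -4.59, which ranked number 4 and number 13 from the lowest of 14527 genes. Without the library rich in rRNA, the log2 fold change with miR-28 was -4.40. The log2 fold change in RPE-1 minus that in MCF10A was -1.85 for miR-28 and -2.02 for miR-708, values that use the same libraries as the choice of the gene and were not tested. Log2 was taken of the value + 1, and this makes the change of low values such as these look smaller than it is.

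The mimics were also set against each other. In MCF10A, IMPDH1 differed between miR-708 and miR-28 by -0.11 on the log2 scale, with a 95% interval of -0.62 to 0.40 (adjusted p = 0.86, limma), an interval that leaves room for a difference in either direction. In RPE-1 the corresponding difference was -0.28 and was not tested.

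**Figure D2:**
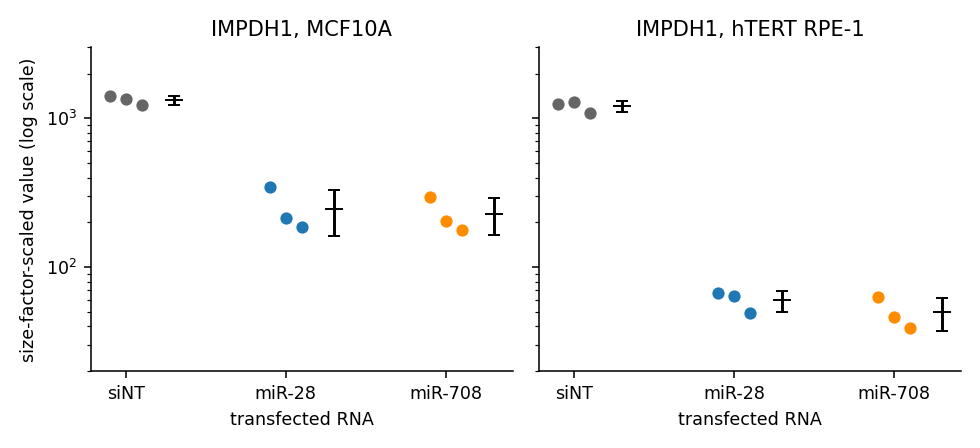
IMPDH1 in every library (points) with the mean ± SD of 3 replicates beside them (black), in MCF10A (left) and RPE-1 (right). The y axis is the size-factor-scaled value on a log scale. In MCF10A the libraries with a mimic lie between 178 and 345 and those with siNT between 1223 and 1406, and in RPE-1 between 39.1 and 66.8 and between 1083 and 1279.

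Genes with at least 2 matches to bases 2 to 8 in the 3′ UTR, a class that includes IMPDH1, had a median log2 fold change of -0.17 with miR-28 and -0.28 with miR-708 in MCF10A, and of -0.35 and -0.50 in RPE-1. The medians of genes without a match were -0.01, 0.0049, 0.06 and 0.09 in the same order. IMPDH1 was far below the median of its class in each comparison, and only 1 gene of the class in MCF10A with each mimic and 2 in RPE-1 with each mimic were as low as IMPDH1, itself included. These are descriptions across genes, without a test, and genes without a match were as low as IMPDH1 too, 10 and 7 of them in MCF10A and 1 and 8 in RPE-1. In RPE-1 the place of IMPDH1 in its class rests on the values by which it was chosen.

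IMPDH2 encodes the isoform of IMP dehydrogenase that predominates in most dividing cells, and it fell with both mimics in both lines. In MCF10A the values were 8219, 8866 and 7902 with siNT, 4966, 5560 and 6124 with miR-28, and 4945, 5030 and 4603 with miR-708. The groups with a mimic did not overlap with siNT. The log2 fold changes were -0.59 ± 0.10 and -0.78 ± 0.10 (SE, adjusted p = 0.0027 and 0.00025, limma). In RPE-1 the values were 3001, 2696 and 2878 with siNT, 2338, 1531 and 1849 with miR-28, and 2065, 1585 and 1901 with miR-708. Here too the groups did not overlap, and the highest library with a mimic was the one rich in rRNA. The log2 fold changes were -0.60 ± 0.15 and -0.63 ± 0.15 (adjusted p = 0.0068 and 0.0034, limma), the former being -0.76 without that library. When the values were scaled by library size alone, the log2 fold change with miR-708 in RPE-1 was -0.32 and did not pass the test (adjusted p = 0.063, limma).

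Since IMPDH1 and IMPDH2 catalyse the same reaction, their values were also set per kb of transcript and added, with a transcript of 2611 nt for IMPDH1 and of 1651 nt for IMPDH2. With siNT, IMPDH1 made up 8.84% to 9.76% of the sum in MCF10A and 19.2% to 23.1% in RPE-1. With a mimic it made up 1.89% to 4.20% in MCF10A and 1.29% to 2.57% in RPE-1. The ratio of IMPDH1 to IMPDH2 was lower in every library with a mimic than in every siNT library. In MCF10A the log2 ratio minus that with siNT was -1.88 with miR-28 and -1.80 with miR-708 (two-sided exact permutation test, p = 0.1, the smallest that 3 against 3 libraries allow). The sum per kb was 62.2% of siNT with miR-28 and 54.6% with miR-708 in MCF10A, and 53.7% and 52.0% in RPE-1. These are sums of RNA and not of protein or enzyme activity.

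**Figure D3:**
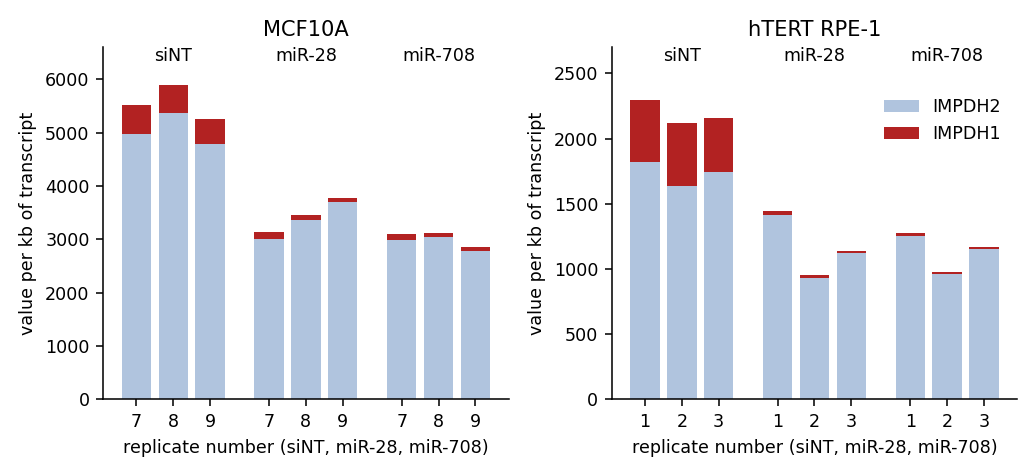
Value per kb of transcript (y axis, linear) of IMPDH2 (blue) and IMPDH1 (red), stacked, in each of the 18 libraries, with the replicate number on the x axis. IMPDH1 is 19.2% to 23.1% of a bar with siNT in RPE-1 and at most 2.57% with a mimic, and the bars with a mimic average 52.0% to 62.2% of those with siNT in their line.

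GMPS, the GMP synthetase that completes the branch, fell in MCF10A, where the siNT values were 5394, 5327 and 5176, those with miR-28 3692, 3713 and 3464, and those with miR-708 4172, 3023 and 2994. The groups did not overlap, and the log2 fold changes were -0.55 ± 0.12 and -0.66 ± 0.12 (SE, adjusted p = 0.0091 and 0.0021, limma). In RPE-1 the siNT values of 2688 to 3151 overlapped with those of both mimics, 2235 to 2864, and the log2 fold changes of -0.18 and -0.20 did not pass the test (adjusted p = 0.20 and 0.13, limma). The response to miR-708 differed between the lines by 0.46 ± 0.16 (SE, adjusted p = 0.028, limma fits of each line), and that to miR-28 by 0.37 ± 0.16 (adjusted p = 0.10).

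The genes of the chain to IMP follow in the order of the reactions. PPAT encodes the amidotransferase of the committed step. It alone among the 10 genes rose, in RPE-1 with both mimics. Its values there were 610, 624 and 776 with siNT, 906, 849 and 916 with miR-28, and 1029, 889 and 1046 with miR-708. All 6 libraries with a mimic lay above all siNT libraries, of which replicate 3 was the highest. The log2 fold changes were 0.42 ± 0.11 and 0.56 ± 0.11 (SE, adjusted p = 0.012 and 0.0014, limma). Without siNT replicate 1, the call with miR-28 was lost (adjusted p = 0.052, limma). In MCF10A the values of 1925 to 2124 with siNT and 1823 to 2167 with miR-28 overlapped, those with miR-708 were 1722 to 1780, and neither difference passed the test (log2 fold changes of -0.01 and -0.21, adjusted p = 0.96 and 0.098, limma). The response of PPAT differed between the lines by 0.43 ± 0.15 with miR-28 (adjusted p = 0.039) and by 0.78 ± 0.15 with miR-708 (adjusted p = 0.00029).

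GART, a trifunctional enzyme that serves several steps of the chain, fell in MCF10A from 6747, 6592 and 6602 with siNT to 4600, 4693 and 4866 with miR-28 and to 5391, 4396 and 4551 with miR-708. The log2 fold changes were -0.49 ± 0.09 and -0.48 ± 0.09 (SE, adjusted p = 0.0048 and 0.0030, limma). In RPE-1 the siNT values were 2398, 2218 and 2235, those with miR-28 were 2504, 2427 and 2477 and those with miR-708 were 2872, 2282 and 2967. All but 1 of these lay above the siNT libraries, with log2 fold changes of 0.11 and 0.24 that did not pass the test (adjusted p = 0.38 and 0.063, limma). Scaled by library size, the latter was 0.56 and passed (adjusted p = 0.0007). The lines differed in the response of GART by 0.61 ± 0.14 with miR-28 (adjusted p = 0.0035) and by 0.72 ± 0.14 with miR-708 (adjusted p = 0.00033).

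PFAS encodes the next enzyme of the chain, an amidotransferase, and was the gene with the fewest reads per kb with siNT. In MCF10A its values were 681, 907 and 808 with siNT and 561, 561 and 531 with miR-708, a fall of 0.53 on the log2 scale (SE 0.12, adjusted p = 0.0069, limma). The values with miR-28, 677, 668 and 747, overlapped with siNT (log2 fold change of -0.19, adjusted p = 0.29). In RPE-1 the order was the opposite one, since PFAS was lower with miR-28 (586, 620 and 610 against 884, 814 and 684 with siNT, log2 fold change of -0.38 ± 0.11, adjusted p = 0.019) and not called with miR-708 (754, 633 and 735, log2 fold change of -0.16, adjusted p = 0.24). The mimics did not differ by the test of that difference in either line (adjusted p = 0.22 in MCF10A and 0.20 in RPE-1, limma). The call with miR-28 in RPE-1 was lost with both library size scalings and without siNT replicate 1 or 2 (adjusted p up to 0.083).

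PAICS, a bifunctional enzyme of the middle of the chain, is the most abundant of the 10 genes by reads per gene. Its values in MCF10A were 13414, 14160 and 14515 with siNT, 10454, 11977 and 10956 with miR-28, and 11951, 10027 and 9658 with miR-708. No library with a mimic reached the siNT libraries, and the log2 fold changes were -0.34 ± 0.11 and -0.42 ± 0.11 (SE, adjusted p = 0.046 and 0.013, limma). The former call is close to the threshold and was lost in 12 of the alternatives tried, among them each scaling and the omission of any 1 siNT or miR-28 library (adjusted p up to 0.13). The call with miR-708 was lost in 4, with library size scaling and without siNT replicate 9 or miR-708 replicate 8 or 9 (adjusted p up to 0.064). In RPE-1, PAICS was 4425 to 5110 with siNT, 3832 to 4081 with miR-28 and 3710 to 5075 with miR-708, and neither difference passed the test (adjusted p = 0.073 and 0.55).

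PPAT and PAICS are neighbours on chromosome 4 and are transcribed away from each other, from start sites 645 bp apart in GENCODE 44. Their values nevertheless moved apart. The log2 ratio of PAICS to PPAT was lower in every library with a mimic than in every siNT library of its line. In MCF10A it was 2.79 ± 0.01 with siNT, 2.46 ± 0.11 with miR-28 and 2.58 ± 0.14 with miR-708 (mean ± SD, n = 3, exact permutation p = 0.1 for each mimic). In RPE-1 it was 2.85 ± 0.14 with siNT, 2.15 ± 0.07 with miR-28 and 2.20 ± 0.12 with miR-708 (n = 3, exact permutation p = 0.1 for each mimic). A ratio within a library does not depend on the scaling, and 0.1 is the smallest p that this two-sided test can give.

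**Figure D4:**
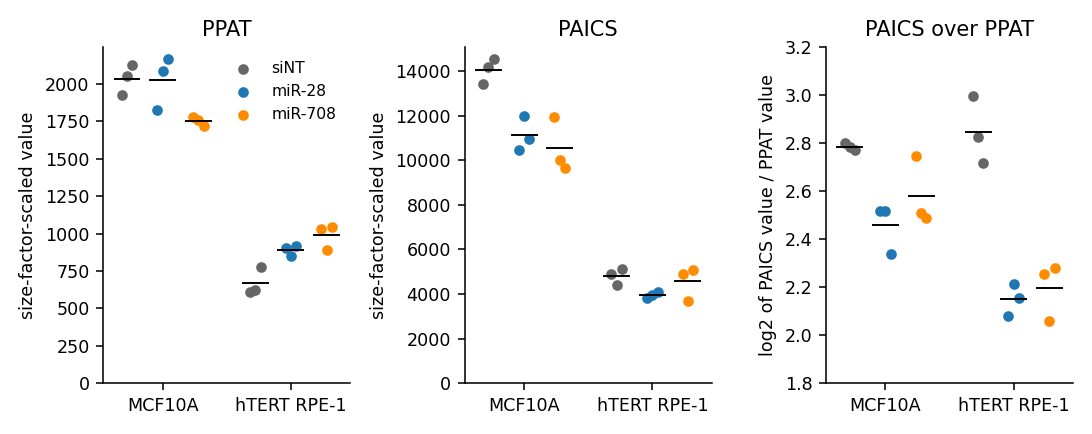
Size-factor-scaled values of PPAT (left) and PAICS (middle) and the log2 ratio of PAICS to PPAT (right, axis from 1.8 to 3.2) in each library, with black lines at the means of 3 replicates. In both lines the ratio is below all siNT libraries in all 6 libraries with a mimic.

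ADSL encodes adenylosuccinate lyase, which acts in the chain to IMP and again on the path to AMP. It fell in MCF10A from 2025, 2528 and 2286 with siNT to 1484, 1620 and 1884 with miR-28 and to 1418, 1328 and 1407 with miR-708, without overlap. The log2 fold changes were -0.46 ± 0.11 and -0.71 ± 0.11 (SE, adjusted p = 0.015 and 0.00087, limma). In RPE-1 the values of 2023 to 2242 with siNT lay above those of both mimics, 1624 to 2015, in all libraries, but the log2 fold changes of -0.25 and -0.18 did not pass the test (adjusted p = 0.059 and 0.13, limma). The response to miR-708 differed between the lines by 0.53 ± 0.15 (adjusted p = 0.0072).

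ATIC, which carries out the last steps to IMP, did not pass the test in any of the 4 comparisons. Its values in MCF10A were 4737 to 5514 with siNT, 3742 to 4700 with miR-28 and 3940 to 4536 with miR-708, with log2 fold changes of -0.23 and -0.27 (adjusted p = 0.15 and 0.090, limma). In RPE-1 they were 1845 to 2182, 1852 to 2264 and 1850 to 2180 in the same order, with 95% intervals of the log2 fold change of -0.22 to 0.25 and -0.20 to 0.26.

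HPRT1, the salvage enzyme for hypoxanthine and guanine, fell with both mimics in both lines and, after IMPDH1, had the lowest log2 fold change of the 10 genes in 3 of 4 comparisons. In MCF10A the values were 1354, 1380 and 1349 with siNT, 791, 751 and 620 with miR-28, and 920, 568 and 478 with miR-708. In RPE-1 they were 968, 879 and 1133 with siNT, 478, 655 and 466 with miR-28, and 694, 575 and 650 with miR-708. No library with a mimic overlapped with siNT in either line. The log2 fold changes were -0.92 ± 0.20 and -1.11 ± 0.20 in MCF10A (SE, adjusted p = 0.0078 and 0.0017, limma) and -0.91 ± 0.15 and -0.63 ± 0.15 in RPE-1 (adjusted p = 0.00072 and 0.0037, limma). With library size scaling, the value with miR-708 in RPE-1 was -0.31 and did not pass (adjusted p = 0.11). Neither response of HPRT1 passed the test of a difference between the lines (adjusted p = 0.97 and 0.13).

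Counted together, 6 of the 9 genes other than IMPDH1 fell with miR-28 in MCF10A, beside 12.0% of all genes tested, and 7 of 9 fell with miR-708, beside 17.3%. None rose (limma), beside 10.7% and 15.5% of all genes. Their median log2 fold change was -0.46 and -0.53, beside medians of 0.0056 and -0.0047 over all genes. In RPE-1, 3 of 9 fell with miR-28, IMPDH2, PFAS and HPRT1, beside 23.5% of all genes, and PPAT rose, beside 23.3%. With miR-708, IMPDH2 and HPRT1 fell, beside 31.2%, and PPAT rose, beside 30.9%, so that the counts in this line were near the background. The median of the 9 genes was -0.25 and -0.16 in RPE-1, beside medians of 0.0061 and 0.0021.

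**Figure D5:**
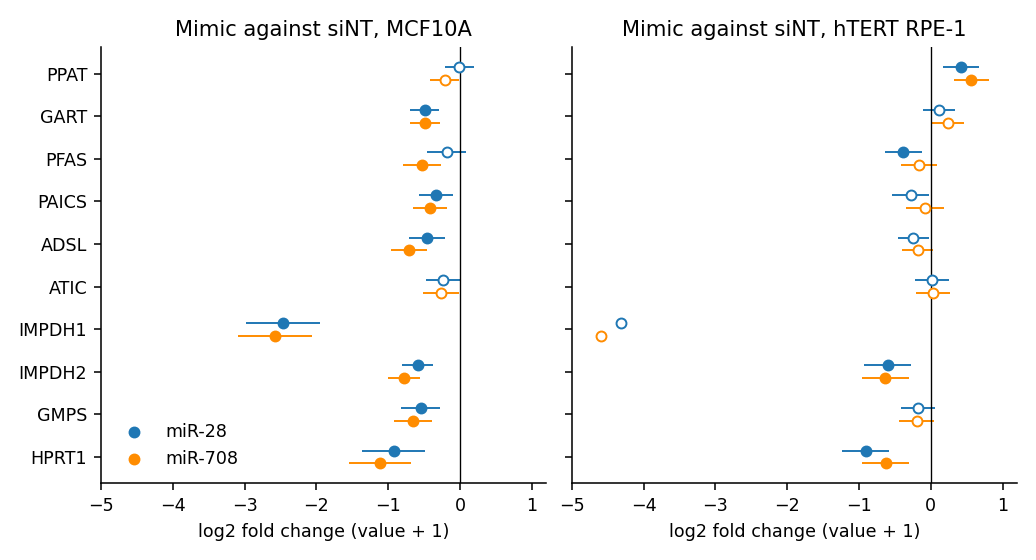
Log2 fold change against siNT (x axis) of the 10 genes with miR-28 (blue) and miR-708 (orange) in MCF10A (left) and RPE-1 (right), with 95% intervals of the limma fit. Filled points passed the test and open points did not, except IMPDH1 in RPE-1 (-4.32 and -4.59), which was not tested and is drawn open and without an interval.

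The counts depend on how libraries are made comparable. Scaled by library size, all genes together had a median change of 0.12 and 0.14 in MCF10A and 0.09 and 0.32 in RPE-1 on the log2 scale, and of the genes called, the part that was higher moved from 47.1% to 66.2%, from 47.3% to 67.6%, from 49.9% to 59.4% and from 49.7% to 71.9%. Under that scaling GMPS, PFAS, PAICS and ADSL had positive log2 fold changes with miR-708 in RPE-1, of 0.12 to 0.24, none of which passed the test and all of which lie below the shift of the median.

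No gene of the 9 differed between the mimics in MCF10A, where 1.55% of all genes did, or in RPE-1, where 21.2% did (limma). Before adjustment, 2320 and 5124 of all genes had a p below 0.05. The differences of the 9 genes between the mimics lay between -0.34 and 0.01 in MCF10A and between -0.03 and 0.28 in RPE-1 on the log2 scale. With library size scaling 6 of the 9 genes differed in RPE-1, where the median of all genes was then 0.23.

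Between the lines, the response to miR-28 differed in 2 of 9 genes, PPAT and GART, beside 23.4% of the 13339 genes tested in both lines, and that to miR-708 in 4 of 9, PPAT, GART, GMPS and ADSL, beside 39.8%. Both counts are near the background. In each of these genes the log2 fold change in RPE-1 was above that in MCF10A. The difference of PPAT with miR-28 was lost in 10 of the alternatives tried (library size and upper quartile scaling, no trend and without siNT replicate 8 or 9 or miR-28 replicate 7 of MCF10A or siNT replicate 1 or 2 or miR-28 replicate 1 or 3 of RPE-1, adjusted p up to 0.11). That of GMPS with miR-708 was lost in 7 (no trend and without siNT replicate 7 or 8 or miR-708 replicate 8 or 9 of MCF10A or siNT replicate 2 or miR-708 replicate 3 of RPE-1, adjusted p up to 0.093).

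Other features moved with these groups. The summed value of 15 proliferation genes was 61731 to 69579 with siNT, 59121 to 67088 with miR-28 and 56366 to 60413 with miR-708 in MCF10A, and 22874 to 35055, 31692 to 35325 and 43978 to 64103 in RPE-1. The summed value of 10 interferon response genes was 4326 to 4540, 5675 to 7414 and 66025 to 109903 in MCF10A, and 5702 to 6318, 36417 to 311412 and 253842 to 295291 in RPE-1, in the same order. The lowest of the miR-28 libraries in RPE-1, at 36417, was the one rich in rRNA. In MCF10A, IMPDH1 was at 18.7% of siNT with miR-28, where the interferon sum was at most 7414, and at 17.1% with miR-708, where it was at least 66025. In MCF10A, 4 of the 15 proliferation genes fell with miR-28, MCM2, MCM3, MCM4 and MCM6, by 0.43 to 0.75 on the log2 scale, and 6 fell with miR-708, while 1 and 2 rose. Of all genes there, 12.0% and 17.3% fell and 10.7% and 15.5% rose. In RPE-1 none fell, beside 23.5% and 31.2% of all genes, and 2 rose with miR-28 and 13 with miR-708, beside 23.3% and 30.9%. The markers of the lines moved too. The summed value of the breast epithelial markers in MCF10A was 202234 to 223214 with siNT, 141224 to 151194 with miR-28 and 117384 to 141732 with miR-708, with 3 and 4 of 8 genes called lower, KRT14 among them (-1.72 and -2.29), beside 12.0% and 17.3% of all genes. That of the retinal pigment epithelial markers in RPE-1 was 2949 to 4344, 1953 to 2076 and 2112 to 2283, with 3 and 2 of the 6 tested called lower, beside 23.5% and 31.2% of all genes, and 2 and 1 called higher, beside 23.3% and 30.9%. The part of any of these in the results above was not tested. In RPE-1, on which the choice of IMPDH1 rests, it was 66.8 in the miR-28 library with the interferon sum of 36417 and 48.9 to 63.9 in the other libraries of that group. A relation of IMPDH1 to the interferon sum was not tested in either line.

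In the order of levels per kb of transcript, IMPDH2 was the highest of the 10 genes and ATIC the next in every group of both lines. With siNT the lowest were PFAS in both lines, at 149 ± 21.1 per kb in MCF10A and 148 ± 18.9 in RPE-1 (mean ± SD, n = 3). IMPDH1 was number 9 in MCF10A with siNT, at 509 ± 36.4 per kb, where ADSL at 523 ± 57.7 did not differ from it beyond the spread, and number 7 in RPE-1. With either mimic IMPDH1 was the lowest, at 95.0 and 87.0 per kb in MCF10A and 22.9 and 19.1 in RPE-1. These levels depend on the transcript taken for each gene, which matters most for GMPS and PAICS with their long 3′ UTRs.

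The other genes of purine metabolism were taken from lists of the supply of phosphoribosyl pyrophosphate, the path to AMP, salvage, interconversion and breakdown, nucleotide kinases and ribonucleotide reduction. In each line 36 were tested, of which 35 were tested in both lines. Of the 36 in MCF10A, 6 fell and 2 rose with miR-28 and 10 fell and 3 rose with miR-708. Of the 36 in RPE-1, 12 fell and 8 rose, and 14 fell and 14 rose. As percentages of all genes, 12.0% fell and 10.7% rose with miR-28 and 17.3% and 15.5% with miR-708 in MCF10A, and 23.5% and 23.3%, and 31.2% and 30.9%, in RPE-1, so that most of these counts are near the background. The medians of their log2 fold changes were -0.16, -0.06, -0.08 and 0.05 in the same order.

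ADSS2, adenylosuccinate synthetase, fell in all 4 comparisons. Its mean was 7743 with siNT, 3905 with miR-28 and 3794 with miR-708 in MCF10A (log2 fold changes of -0.99 ± 0.14 and -1.05 ± 0.14, adjusted p = 0.0011 and 0.00034, limma). In RPE-1 it was 2517, 1103 and 1075 (log2 fold changes of -1.19 ± 0.09 and -1.23 ± 0.09, adjusted p = 5.3e-06 and 1.7e-06, limma). Its paralog ADSS1 did not pass the test and was low in RPE-1, at 44.7 or less in every library.

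The phosphoribosyl pyrophosphate synthetases moved in opposite directions in RPE-1, where PRPS2 rose with both mimics (log2 fold changes of 0.48 and 0.73, adjusted p = 0.0060 and 0.00027, limma) and PRPS1 fell with miR-708 (-0.70, adjusted p = 0.0099), a call lost under both library size scalings (adjusted p up to 0.12). In MCF10A, PRPS2 fell with miR-708 (-0.38, adjusted p = 0.034), which was lost in 8 of the alternatives (both library size scalings, no trend and without any 1 siNT library or replicate 8 or 9 of miR-708, adjusted p up to 0.14), and PRPS1 did not pass the test. APRT, which salvages adenine, fell in RPE-1 to 55.3% of siNT with miR-28 and 37.2% with miR-708 (adjusted p = 0.0018 and 3.6e-05, limma), and to 77.3% with miR-708 in MCF10A (adjusted p = 0.038). The last of these calls was lost in 10 of the alternatives (each scaling, no trend and without replicate 8 or 9 of siNT, 8 of miR-28 or any 1 of miR-708, adjusted p up to 0.19, limma).

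ADA, which deaminates adenosine, was at 41.8% and 46.4% of siNT in MCF10A and at 16.4% and 24.8% in RPE-1 with miR-28 and miR-708, and was called in all 4 comparisons (highest adjusted p = 0.00063, limma). AK4, a mitochondrial adenylate kinase, was at 55.8% and 48.0% in MCF10A and 22.4% and 14.6% in RPE-1 (highest adjusted p = 0.0025, limma). AMPD2, an AMP deaminase, and NME2, a nucleoside diphosphate kinase, fell in 3 of 4 comparisons each, without miR-28 in MCF10A. The NME2 call with miR-708 in MCF10A was lost in 7 of the alternatives (both library size scalings, no trend and without replicate 8 or 9 of siNT or of miR-708, adjusted p up to 0.12, limma). Of ribonucleotide reduction, RRM2B, a small subunit of ribonucleotide reductase, rose in all 4 comparisons by 1.23 to 1.40 on the log2 scale. SAMHD1, a dNTP hydrolase that is known to be induced by interferon, rose by 0.54 with miR-28 and 3.07 with miR-708 in MCF10A and by 3.05 and 3.80 in RPE-1. The SAMHD1 values with miR-28 in RPE-1 were 3668, 27257 and 19786, the lowest being the library rich in rRNA, and the log2 fold change was 3.93 without it and 2.49 without replicate 2. In MCF10A, SAMHD1 lost its call with miR-28 without siNT replicate 9 or miR-28 replicate 8 or 9 (adjusted p up to 0.065, limma).

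Purine synthesis takes carbon from folate and glycine, which cells can make from serine. Of 12 genes of serine and folate one-carbon metabolism, 6 fell with each mimic in MCF10A, beside 12.0% and 17.3% of all genes, and 1 rose with miR-28, beside 10.7%. Of the 11 tested in RPE-1, 1 had a lower call with each mimic, beside 23.5% and 31.2% of all genes. In that line 3 rose with miR-28 and 4 with miR-708, beside 23.3% and 30.9%, which is near the background. The response differed between the lines in 6 of these 11 genes with miR-28, beside 23.4% of all genes, and in 9 with miR-708, beside 39.8%, always with the higher log2 fold change in RPE-1. PHGDH, the entry enzyme of serine synthesis, was 1415, 378.2 and 1390 with siNT in MCF10A, 89.8, 111 and 129 with miR-28 and 117, 116 and 89.7 with miR-708. The siNT library of replicate 8 was far below the other siNT libraries but above all of those with a mimic. PHGDH had log2 fold changes in MCF10A of -3.05 and -3.08, and of -3.68 and -3.71 without this library. In RPE-1, PHGDH rose with miR-708 (0.50 ± 0.12 on the log2 scale, adjusted p = 0.0042, limma) and was not called with miR-28 (0.08, adjusted p = 0.63). The difference of the response between the lines was 3.12 ± 0.43 with miR-28 (adjusted p = 0.00027) and 3.58 ± 0.43 with miR-708 (adjusted p = 2.5e-05). ALDH1L2, a mitochondrial folate enzyme, fell in MCF10A from 9554, 4231 and 8875 to 2614, 1415 and 1378 with miR-28 and to 2087, 945 and 814 with miR-708, and was at most 36.7 in all libraries of RPE-1, where its call with miR-708 was lost in 9 of the alternatives (both library size scalings, the replicate block and without any 1 siNT library, replicate 3 of miR-28 or replicate 2 or 3 of miR-708, adjusted p up to 0.17).

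Of 9 genes of pyrimidine synthesis, UCK2, a uridine-cytidine kinase, was the only one called in MCF10A, where it fell by 0.37 and 0.30 on the log2 scale. Of all genes there, 12.0% and 17.3% fell, so this count is near the background. The UCK2 call with miR-708 was lost in 6 of the alternatives (both library size scalings and without replicate 8 or 9 of siNT or of miR-708, adjusted p up to 0.19, limma). None of the 9 was called with miR-28 in RPE-1, where 23.5% of all genes fell and 23.3% rose. With miR-708 there, 3 rose, UCK2 among them (0.60), near the 30.9% of all genes. MYC and ATF4, which encode transcription factors known to act on purine and one-carbon genes, responded differently between the lines at the RNA level. Their part in the changes of the other genes was not tested. MYC, a known activator of the chain to IMP, was at 59.5% and 51.4% of siNT in MCF10A (adjusted p = 0.0017 and 0.00019, limma) and at 95.1% in RPE-1 with each mimic (adjusted p = 0.79 and 0.65). ATF4, a known activator of serine and one-carbon genes, was at 47.9% and 53.6% in MCF10A (adjusted p = 0.00032 and 0.00027, limma) and rose to 137% and 127% in RPE-1 (adjusted p = 0.011 and 0.026). The ATF4 call with miR-708 in RPE-1 was lost without replicate 1 or 3 of siNT or replicate 1 or 2 of miR-708 (adjusted p up to 0.095, limma).

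The genes whose values moved most like those of IMPDH1 were sought over the 18 libraries, with log2 values centred within each line, among 10233 other genes with a mean of at least 100 in both lines. They were RPS28 (r = 0.993), a protein of the small ribosomal subunit, SLC35A4 (0.991), PEX2 (0.990), HDLBP (0.989) and WSB2 (0.988). The libraries of a group share their treatment, so these values describe likeness and were given no p. RPS28 was 3870, 567 and 624 with siNT, miR-28 and miR-708 in MCF10A and 3220, 147 and 153 in RPE-1 in the mean. By the same measure ADSS2 was at 0.964, number 98, IMPDH2 at 0.847, HPRT1 at 0.828 and PPAT at -0.628. PPAT rose in RPE-1, whereas its log2 fold changes in MCF10A, -0.01 and -0.21, were not opposite to those of IMPDH1. The measure includes the RPE-1 values of IMPDH1, on which the choice of the gene rests.

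Reads of some of these genes may be shared with copies elsewhere in the genome. GENCODE 44 names 10 pseudogenes of IMPDH1, 7 of PAICS, 3 of HPRT1, 2 of PPAT and 1 of GMPS. None of them is listed in the tables, so how such reads were divided is uncertain, and so is whether strand was used in counting. In GENCODE 44, genes named only by an Ensembl identifier overlap exons of PPAT, ADSL and IMPDH2, and no overlap was found for the others of the 10. The tables list genes by symbol, so whether these overlapping genes were counted could not be looked up.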

How the data were processed

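RNAseq of 18 libraries was analysed from 1 deposited table per cell line. The authors aligned reads to hg38 with HISAT2 2.1.0, counted them on RefSeq transcripts by Partek E/M and tested differences with DESeq2. The expression signal that the authors deposited is, for each gene, its estimated count over the size factor of the library (median of ratios), and 81.4% to 86.2% of low values were whole multiples (tolerance 0.02) of the step of their library, so whole reads were not recovered. The deposited p-values, FDRs, ratios and fold changes of the authors' own comparisons were not used.

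The members and gene lists were chosen with earlier results of these data known. Genes that reached 10 in 3 or more of a line's 9 libraries were kept, log2(value + 1) was taken, and 3 group means per line were fitted with limma 3.58.1 (trend, R 4.3.3). Benjamini-Hochberg adjusted p-values ran over all genes tested, with calls below 0.05. As the tables were scaled separately, lines were compared by subtracting their log2 fold changes, with both standard errors and Welch–Satterthwaite degrees of freedom. The fits were tested on simulated data. P-values measure the spread between these biological replicates. Libraries of the same number deviated together in MCF10A with each mimic against siNT (correlations across genes of 0.26, 0.18 and 0.11 with miR-28 and 0.30, 0.11 and 0.16 with miR-708). Libraries of different numbers were not compared, so these correlations do not establish that the numbers pair the libraries. The labels give the number only, and the main fits hold no pairing.

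Named genes are the 10 members, PRPS1, PRPS2, APRT, ADSS1, ADSS2, MYC and ATF4, the 2 genes per list of purine, one-carbon and pyrimidine metabolism with the largest mean change among those called in at least 3 of 4 comparisons, and the 5 genes most like IMPDH1. The mature sequences come from the supplementary table of the study, and that of miR-708 was the same in RefSeq. Transcript sequences come from GENCODE 44 and hg38. Exact tests and plots used scipy 1.17.1 and matplotlib 3.10.9 under Python 3.11.15, with pandas 2.3.3 and numpy 2.4.6.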

Additional observations from a re-analysis of the deposited data

Results flagged for a closer look

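The responses below differed between the cell lines by the test of the difference itself (adjusted p below 0.05, limma fits of each line). With miR-28 the log2 fold change in RPE-1 minus that in MCF10A was 0.43 in PPAT, 0.61 in GART among the purine synthesis genes, and 0.77 in PRPS2, 0.68 in MYC, 1.50 in ATF4, -1.32 in ADA, -1.44 in AK4, 2.51 in SAMHD1, 3.12 in PHGDH, 0.61 in UCK2 among the other named genes. With miR-708 the log2 fold change in RPE-1 minus that in MCF10A was 0.46 in GMPS, 0.78 in PPAT, 0.72 in GART, 0.53 in ADSL among the purine synthesis genes, and -0.91 in PRPS1, 1.12 in PRPS2, -1.06 in APRT, 0.85 in MYC, 1.24 in ATF4, -0.91 in ADA, -1.71 in AK4, -0.59 in NME2, 1.71 in ALDH1L2, 3.58 in PHGDH, 0.89 in UCK2 among the other named genes. A positive value means that the log2 fold change was higher in RPE-1. Over all genes tested in both lines, 23.4% differed with miR-28 and 39.8% with miR-708. IMPDH1 was left out, since it was chosen by its fall in RPE-1. The lines differ in origin, medium and scaling of their tables, which cannot be told apart here.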

How the results depend on the processing

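Of 3555 alternative values of 179 results, 3297 kept their direction and their side of the threshold or stayed near the reported count, and no called value changed sign. The alternatives were 9 planned settings, 1 added after seeing the data (library size scaling without rRNA genes) and the omission of each of the 18 libraries. IMPDH1 in MCF10A passed the test in all of them (highest adjusted p = 0.0031 with miR-28 and 0.00092 with miR-708, limma).

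Values that were not called and changed sign were, under library size scaling, 0.102 for PPAT and 0.0791 for PRPS1 with miR-28 and 0.0137 for ADSS1 with miR-708 in MCF10A, 0.0208 for MYC with miR-28 and 0.118 for GMPS, 0.156 for PFAS, 0.235 for PAICS, 0.136 for ADSL and 0.217 for MYC with miR-708 in RPE-1, and -0.00824 for the line difference of HPRT1 with miR-28. Without rRNA genes in that scaling they were 0.102 for PPAT, 0.079 for PRPS1, 0.054 for MYC with miR-28, 0.0974 for GMPS, 0.135 for PFAS, 0.214 for PAICS, 0.115 for ADSL and 0.196 for MYC with miR-708. Under upper quartile scaling they were 0.0602 for PPAT, 0.0374 for PRPS1 and -0.0342 for HPRT1. The cause was not tested.

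Leaving out 1 library, uncalled values ranged with miR-28 in MCF10A from -0.0596 to 0.065 for PPAT and from -0.0832 to 0.0255 for PRPS1. With miR-708 there, ADSS1 ranged from -0.276 to 0.127, and IMPDH1 between the mimics from -0.323 to 0.153. In RPE-1 with miR-28 the range was -0.0581 to 0.0868 for ATIC, -0.0454 to 0.608 for ADSS1, -0.151 to 0.0427 for MYC and -0.0583 to 0.196 for PHGDH. With miR-708 it was -0.0353 to 0.105 for ATIC, -0.167 to 0.0592 for PAICS and -0.263 to 0.137 for MYC. The line difference with miR-28 ranged from -0.174 to 0.132 for IMPDH2, from -0.00202 to 0.11 for PAICS and from -0.14 to 0.116 for HPRT1.

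Of the 9 genes other than IMPDH1, the number called without 1 library was 4 to 6 and 6 to 8 in MCF10A and 2 to 6 and 3 to 4 in RPE-1 for the 2 mimics, and 0 to 1 between the mimics in RPE-1. Between the mimics in RPE-1 it was 6 with library size scaling and 4 without rRNA genes. The line difference with miR-28 was called in 1 gene under library size scaling, upper quartile scaling and no trend, and in 1 to 3 without 1 library. With miR-708 it was called in 8 under both library size scalings and in 3 to 6 without 1 library. ADSL with miR-28 in MCF10A lost its call without replicate 8 of siNT or of miR-28 (highest adjusted p = 0.063).

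With the replicate number as a block, no call among the 10 genes changed in MCF10A, where the number called stayed at 6 with miR-28, and APRT gained a call there (adjusted p = 0.040, limma). Over all genes tested in MCF10A, the number called went from 3347 to 4408 with miR-28 and from 4835 to 5818 with miR-708. In RPE-1 the correlations with siNT were 0.021 to 0.15, which overlap with the 0.11 to 0.30 in MCF10A, and they do not settle pairing. The block gave 6 of 9 calls with miR-28 in RPE-1, adding PAICS (adjusted p = 0.040, limma) and ADSL (0.031), and 4 with miR-708, adding GART (0.049). ADSS1 gained (0.035) and ALDH1L2 lost (0.060) a call with miR-708. Between mimic libraries of the same number in RPE-1 the correlations were 0.13 to 0.28, and no gene of the 9 gained a call between the mimics with the block.

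With 3 libraries a group, exact tests of a single ratio cannot go below p = 0.1, and low values such as IMPDH1 in RPE-1 rest on few reads. Transcript choice was varied only for the seed matches, where the number of the 10 genes with a match to bases 2 to 8 stayed at 1.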

Other observations

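GMPR, PNP and XDH, purine enzymes outside the rule for named genes, were singled out after their values were seen. GMPR returns GMP to IMP, PNP cleaves inosine and guanosine to free bases, and XDH makes uric acid. In RPE-1 the log2 fold changes with miR-28 and miR-708 were 1.89 and 2.71 for GMPR, 0.81 and 2.01 for PNP and 2.39 and 3.79 for XDH. As the genes were singled out after these values were seen, no p is given for them. Of the 9 genes of interconversion and breakdown tested in RPE-1, 4 fell and 3 rose with miR-28, beside 23.5% and 23.3% of all genes. With miR-708, 4 fell and 4 rose, beside 31.2% and 30.9%. In MCF10A none of GMPR, PNP and XDH passed the test, with log2 fold changes of -0.27 and 0.48 for GMPR (adjusted p = 0.27 and 0.054, limma), -0.22 and 0.21 for PNP and -0.13 and 0.15 for XDH.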
